A study of Mus musculus with 24 samples.

Results

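The inguinal fat pads of 4 female and 4 male mice taken at postnatal day 21 (p21) were compared, 8 of the 24 libraries in the series. Each library came from the subcutaneous inguinal white adipose tissue of 1 mouse, the depot in which the inguinal mammary glands of females grow. The females carry the animal numbers 30, 36, 55 and 56 and the males the numbers 37, 38, 53 and 54. Day 21 is the day on which pups of the standard weaning group (SW) leave the mother, and the labels place all 8 animals in that group. The titles of these libraries give day 28, whereas their age labels and descriptions give day 21, which was followed. The other 16 libraries, from females and males at day 28 (p28) after standard or delayed weaning (DW, pups kept with the mother), entered the same fit and serve here only for comparison. The labels name no strain, genetic change or agent for any group. The genes described are those not on chromosomes X and Y, of which 15459 of 15565 held enough reads to be tested.

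At this age the mammary gland of a female mouse is a rudiment, a small tree of epithelial ducts near the nipple that grows into a much larger pad of fat. The duct wall has an inner layer of luminal cells, some of which carry hormone receptors and others of which can later make milk, and an outer layer of contractile basal cells. In male mouse embryos androgen acting through the surrounding mesenchyme usually cuts the bud off from the skin, and little or no gland remains. Around the ducts the pad holds fat cells, fibroblasts, vessels, nerves and a lymph node, and pieces of skin or body wall muscle can come along at dissection.

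The p21 libraries held 57600711 to 154451057 reads in the listed genes. Several libraries stood apart. Male 53 had the fewest reads and 14054 detected genes, against 15859 to 16021 in the other 7, and 12.161% of all tested genes had no read in it. The levels of male 37 fell with the GC content of a transcript relative to the other animals (r = -0.604 across 12508 genes, which are not independent replicates), while those of female 36 (r = 0.304) and male 54 (r = 0.274) rose with it. Mitochondrial transcripts were 16.61% of the values of female 56 and 20.8 to 21.2% of those of the other females, and 16.6, 13.2, 19.8 and 20.9% of those of males 37, 38, 53 and 54. The part of this share in the results was not tested. The 4 Y chromosome genes examined together had at least 16393 reads in every p21 male and 0 in every p21 female. The labels do not say that animals came from separate litters or were handled apart. The limma p-values measure the spread between mice within groups, pooled over all 24 libraries of the series. With only the 8 p21 animals in the fit, 1 gene was called.

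The genes called by limma all differed in one direction. Of the 15459 genes, 51 were higher in females (0.33%) and 0 were higher in males by limma with Benjamini-Hochberg adjustment at 0.05. At an unadjusted p under 0.05 the numbers were 918 and 406, and the smallest limma adjusted p among genes higher in males was 0.101. Other methods called genes on both sides: limma with sample weights called 320 higher in females and 173 higher in males, DESeq2 98 and 10, and the authors' deposited table gives 973 and 634. The median difference over all genes was 0.02 on the log2(value + 1) scale, on which all differences below are given as female minus male. In 44 of the 51 genes every female lay above every male, as 466 of all genes did (3.01%). Among the 51, 20 stood in 7 lists of genes of mammary and other epithelia, and 31 stood in none of these. In the 7 lists 87 genes were tested, with a median difference of 0.41. In 19 lists for the rest of the pad, 204 genes were tested, 1 was called and the median difference was 0.05. The lists were chosen with earlier results of these data known, so these counts are descriptions and not a test. Levels are in the authors' normalised unit, reads divided by 1 factor for each library, and in bulk tissue fewer cells of a type and less RNA per cell cannot be told apart.

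**Figure D1:**
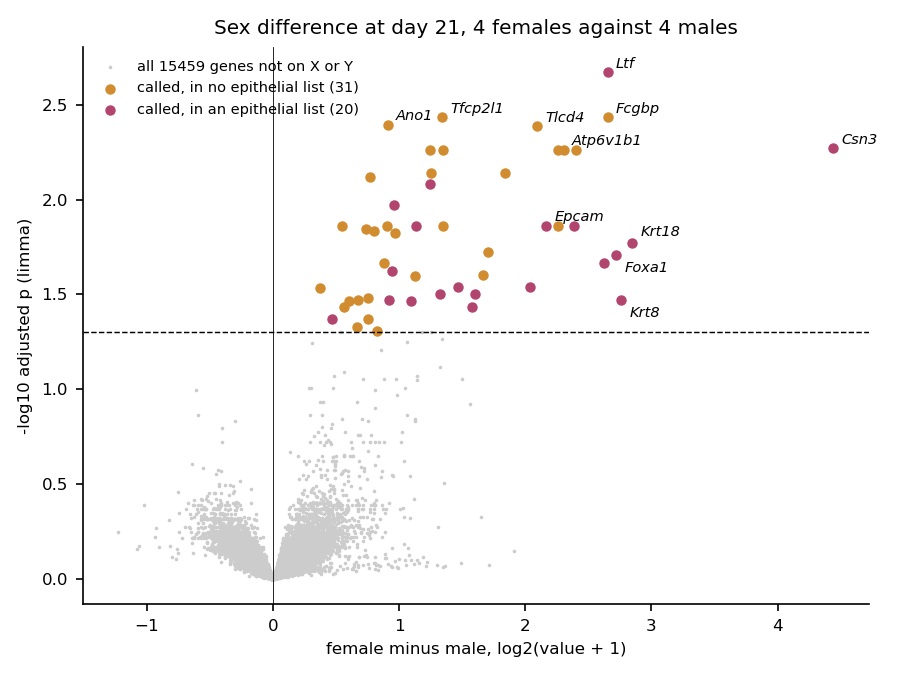
Female minus male difference on the log2(value + 1) scale (x axis) against the -log10 of the limma adjusted p (y axis) for 15459 genes, with the 51 called genes in colour and the threshold of 0.05 as a dashed line. All coloured points lie to the right of 0, from Slc38a11 at 0.37 to Csn3 at 4.44.

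The keratins of simple epithelium, which form the filaments of luminal cells, were all higher in females (4 of 4 tested). Krt18 measured 9.04, 14.2, 3.88 and 15.7 in females 30, 36, 55 and 56, and 0.0518, 0.114, 0.0308 and 2.83 in males 37, 38, 53 and 54. Its partner Krt8 measured 7.03, 13.4, 3.59 and 16.4 in the same females and 0.0776, 0.141, 0 and 2.52 in the males. All females lay above all males for both genes, but male 54 stood far above the other males and came close to female 55. The difference of Krt18 was 2.85 (SE 0.55, limma adjusted p = 0.0169) and that of Krt8 was 2.76 (SE 0.58, limma adjusted p = 0.0338). Krt19 differed by 2.62 (limma adjusted p = 0.0215) and Krt7 by 1.58 (limma adjusted p = 0.037). Epcam, an adhesion molecule on the surface of most epithelial cells, measured 9.50, 12.9, 3.94 and 12.0 in the females and 1.15, 1.11, 0.308 and 2.91 in the males. In every male it lay above Krt18, Krt8, Krt19 and Krt7, and its difference was 2.17 (SE 0.41, limma adjusted p = 0.0137).

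The promoters of 3 called genes are shown because Krt18 stands for the luminal keratins, Foxa1 for the regulators and Ano1 for the genes that were also expressed in every male. The windows run from 250 bases before to 50 bases after the RefSeq start site in GRCm38.p6, and a RefSeq entry was matched for 38 of the 51 genes. Capitals mark a match to the letters GCCNNNGGC (a TFAP2 motif, which reads the same on both strands) in Krt18 and Ano1, and a match to TGTTTAC or its reverse complement (a FOXA motif) in Foxa1.
Krt18, chr15:102027966-102028265, plus strand: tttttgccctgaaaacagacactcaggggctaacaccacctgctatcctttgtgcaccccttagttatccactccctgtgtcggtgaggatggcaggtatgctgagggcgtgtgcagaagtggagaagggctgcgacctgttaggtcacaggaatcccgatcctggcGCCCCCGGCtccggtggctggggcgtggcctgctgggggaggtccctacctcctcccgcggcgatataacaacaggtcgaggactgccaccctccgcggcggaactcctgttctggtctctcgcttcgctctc
Ano1, chr7:144738524-144738823, minus strand: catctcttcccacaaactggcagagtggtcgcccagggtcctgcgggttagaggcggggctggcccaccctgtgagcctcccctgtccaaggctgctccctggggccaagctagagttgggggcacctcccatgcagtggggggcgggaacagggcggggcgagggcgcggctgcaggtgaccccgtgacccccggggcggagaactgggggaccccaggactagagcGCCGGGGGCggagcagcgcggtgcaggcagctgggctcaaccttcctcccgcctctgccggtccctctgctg
Foxa1, chr12:57546062-57546361, minus strand: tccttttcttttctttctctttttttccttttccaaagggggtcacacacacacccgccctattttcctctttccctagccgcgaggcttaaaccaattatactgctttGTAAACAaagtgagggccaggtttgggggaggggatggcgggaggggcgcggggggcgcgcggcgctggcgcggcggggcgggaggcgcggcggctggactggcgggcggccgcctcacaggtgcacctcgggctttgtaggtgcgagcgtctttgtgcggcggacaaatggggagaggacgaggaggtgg
Of the 38 windows, 9 held the TFAP2 letters (23.7%), against 27.3% of the windows of 11999 tested genes. The FOXA letters were in 2 windows (5.26% against 3.10%), those of Atp6v1b1 and Foxa1. The letters AACCNGTT (a GRHL motif) were in 1 window (2.63% against 2.27%) and CCGGAAGT (an ETS motif) in 0 (7.69% of tested genes). Both strands were searched, and a match describes the letters only.

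Regulators of epithelial cells, among them transcription and splicing factors, were higher in females in 6 of the 19 tested. Foxa1, which opens chromatin for the oestrogen receptor in luminal cells, measured 4.18, 9.97, 3.99 and 16.5 in females and 0, 0, 0 and 1.60 in males. The 3 zeros are counts of no read, and 3 reads would have given values of 0.0194, 0.0163 and 0.0462 in males 37, 38 and 53. In male 53, 12.161% of all tested genes had no read, so a 0 there says less than in males 37 and 38. The difference of Foxa1 was 2.72 (SE 0.54, limma adjusted p = 0.0196). Tfap2b, an AP-2 factor, averaged 5.08 ± 3.44 (SD, n = 4) in females and 0.398 ± 0.667 in males, a difference of 2.04 (limma adjusted p = 0.0288). Elf5, which drives the formation of milk-secreting alveoli later in life, measured 1.43, 1.63, 0.867 and 3.19 in females and 0, 0, 0 and 0.573 in males. Groups did not overlap for Elf5, and its difference was 1.25 (SE 0.22, limma adjusted p = 0.00824). The ETS factors Ehf (1.10) and Elf3 (0.96) and the epithelial factor Grhl2 (0.92) were also called. Ehf differed from the others in that all males expressed it, at 1.09 to 2.49. Esrp1, a splicing factor of epithelia, measured 0.81 to 4.16 in females and 0 to 0.39 in males without reaching the threshold (limma adjusted p = 0.0763). Gata3, a luminal regulator that other cells of the pad also express, measured 8.95 to 13.6 in females and 6.82 to 10.1 in males (limma adjusted p = 0.575).

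Of 14 tested genes for milk and secreted proteins, 4 were higher in females. The largest difference of any gene was in Csn3, which encodes kappa casein, the protein that keeps milk micelles in suspension. It measured 18.5, 36.9, 24.2 and 91.1 in females and 0, 0, 0 and 6.65 in males, with the highest level in female 56 and male 54 alone among the males above 0. The difference was 4.44 (SE 0.72, limma adjusted p = 0.00537), and Csn3 was not called by edgeR (adjusted p = 0.423) or DESeq2 (adjusted p = 0.414). Ltf, the iron-binding milk protein lactoferrin, measured 4.74, 10.5, 3.56 and 15.1 in females and 0.0388, 0.0543, 0 and 1.82 in males (difference 2.65, SE 0.39, limma adjusted p = 0.00213). Wfdc18, a whey acidic protein family member, differed by 1.47 (limma adjusted p = 0.0288), and Btn1a1, which coats secreted milk fat globules, by 1.14 (limma adjusted p = 0.0137). The other milk proteins did not follow Csn3. Csn2, beta casein, lay between 0.0376 and 0.096 in females and between 0 and 0.141 in males, and Csn1s1, Csn1s2a, Csn1s2b and Wap did not enter the test. Lalba, for alpha-lactalbumin, a subunit of the enzyme that makes milk sugar, measured 0.241 to 1.40 in females and 0 to 0.478 in males (limma adjusted p = 0.664). Glycam1, which the vessels of lymph nodes also make, was at 785 to 970 in females and 632 to 1746 in males (limma adjusted p = 0.918). Lcn2, lipocalin 2, measured 7.90, 9.12, 4.43 and 9.61 in females and 2.45, 2.03, 3.48 and 3.22 in males. Its groups did not overlap, but it lay just past the threshold (difference 1.18, limma adjusted p = 0.0501).

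Among 20 adhesion genes, Epcam, the desmosomal plaque protein Pkp1 (1.60), and the tight junction claudins Cldn4 (0.95) and Cldn8 (0.47) were higher in females. Cdh1, E-cadherin, measured 7.41, 13.8, 5.06 and 16.8 in females and 3.26, 2.76, 1.11 and 4.17 in males, with no overlap and a limma adjusted p of 0.12. Dsp, desmoplakin, had 0.935 to 6.73 in females and 0 to 1.05 in males (limma adjusted p = 0.473), and its lowest female lay below male 54. Of 10 membrane protease genes and their inhibitors only Tmprss2 was called, with 3.11, 5.60, 2.49 and 14.1 in females and 0, 0, 0 and 0.922 in males. The difference of Tmprss2 was 2.38 (SE 0.44, limma adjusted p = 0.0137).

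Of 7 genes of hormone-sensing luminal cells and their paracrine signals, 1 was called. Pgr, the progesterone receptor, measured 1.81, 1.42, 0.578 and 3.50 in females and 0, 0.0109, 0 and 0.199 in males (difference 1.33, SE 0.28, limma adjusted p = 0.0316). Areg, the growth factor through which oestrogen signals to neighbouring cells, measured 1.39, 1.68, 1.14 and 4.13 in females and 0, 0, 0 and 0.108 in males. Wnt4, the progesterone-induced ligand, measured 1.76, 2.63, 0.906 and 2.27 in females and 0.194, 0.32, 0 and 0.664 in males. Neither group pair overlapped, and the limma adjusted p was 0.0889 for Areg and 0.0852 for Wnt4. Tnfsf11, the ligand RANKL, lay at 0.968 to 2.29 in females and 1.23 to 4.30 in males (limma adjusted p = 0.638). Prlr, the prolactin receptor, was at 27.0 to 58.8 and 14.2 to 39.4 (limma adjusted p = 0.408).

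None of 13 basal and myoepithelial genes was called by limma, although 12 of 13 differences were positive and their median was 0.35. Krt5 measured 1.34, 4.43, 0.434 and 4.45 in females and 0, 0.0109, 0 and 1.29 in males. Its partner Krt14 measured 1.33, 2.51, 0.0578 and 1.97 in females and 0, 0.0109, 0 and 0.515 in males. Male 54 exceeded female 55 for both keratins, so the groups overlapped, and the limma adjusted p was 0.311 for Krt5 and 0.19 for Krt14. Trp63, the master regulator of basal cells, lay at 6.22 to 13.3 in females and 5.58 to 15.4 in males. Oxtr, the oxytocin receptor through which milk is ejected, was at 4.40 to 15.7 in females and 2.45 to 14.7 in males. Neither of these last genes was near 0 in any male. Of 8 contractile genes that vessel walls share with myoepithelium, 0 were called. Acta2 measured 85.8 to 148 in females and 77.1 to 110 in males (limma adjusted p = 0.539).

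**Figure D2:**
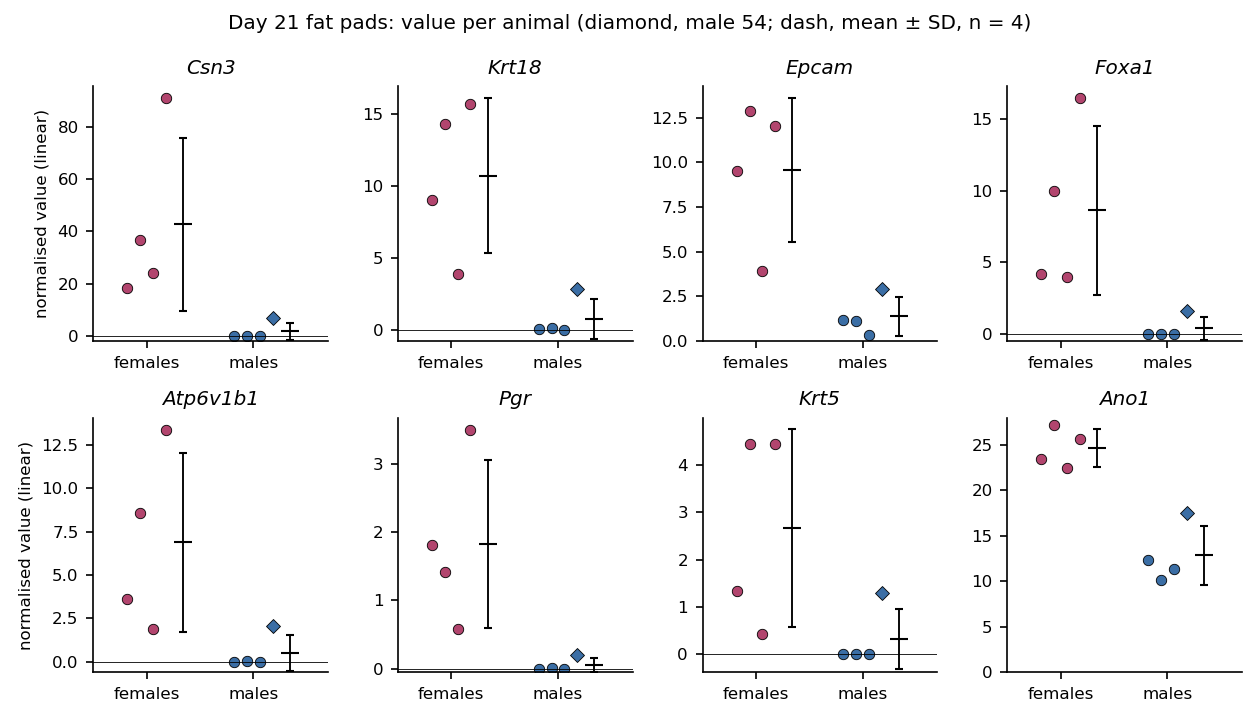
Normalised value on a linear scale (y axis) for each p21 animal in 8 genes, females at left and males at right, with the mean ± SD of 4 animals beside them. Male 54 (diamond) lies above the other males in each panel and above female 55 for Krt5 and Atp6v1b1, while Ano1 measures 10.2 or more in every male.

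Outside the epithelial lists stood 31 called genes, and 30 of these were in no list at all. Fcgbp, a mucin-like secreted protein, measured 5.86, 12.4, 3.37 and 20.7 in females and 0.116, 0.0597, 0.539 and 2.07 in males (difference 2.65, SE 0.41, limma adjusted p = 0.00366). Fgg, the gamma chain of fibrinogen and best known from liver, measured 3.16, 10.6, 1.55 and 8.41 in females and 0, 0, 0 and 0.498 in males (difference 2.40, SE 0.40, limma adjusted p = 0.00545). Dmbt1, a scavenger protein secreted onto mucosal surfaces, averaged 6.23 ± 4.67 (SD, n = 4) in females and 0.309 ± 0.218 in males. Muc15, a membrane mucin, averaged 3.55 ± 2.93 and 0.275 ± 0.542, and Prom2, a protein of apical membrane protrusions, 5.47 ± 2.89 and 0.342 ± 0.669. All 5 genes differed by 1.71 or more.

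A further group has roles in ion and acid transport. Atp6v1b1, a proton pump subunit found in acid-secreting cells of kidney and inner ear, measured 3.62, 8.60, 1.91 and 13.4 in females and 0, 0.0109, 0 and 2.08 in males (difference 2.31, SE 0.39, limma adjusted p = 0.00545). Foxi1, the forkhead factor that specifies such cells in other organs, measured 1.67, 2.11, 0.83 and 3.32 in females and 0, 0, 0 and 0.54 in males (difference 1.35, SE 0.25, limma adjusted p = 0.0137). Tfcp2l1, a factor of the kidney collecting duct, measured 2.61, 2.23, 1.48 and 4.49 in females and 0.323, 0.358, 0 and 1.15 in males (difference 1.34, SE 0.20, limma adjusted p = 0.00366). All females exceeded all males for Foxi1 and Tfcp2l1, while male 54 exceeded female 55 for Atp6v1b1. Slc5a5, the iodide transporter of thyroid and lactating breast, measured 1.64, 3.12, 1.22 and 2.76 in females and 0.278, 0.331, 0.293 and 0.307 in males. The difference of Slc5a5 was 1.25 (SE 0.21, limma adjusted p = 0.00545), and male 54 lay among the other males. Clic6, of a chloride channel family (1.35), the channel regulator Clca3a2 (1.84) and the sodium pump regulator Fxyd3 (1.26) were also higher in females.

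A few called genes were detected in every male at a larger share of the female mean. In 5 of the 51, males 37, 38 and 53 each reached at least 10% of the female mean, and in 36 each stayed under 10%. Ano1, a calcium-activated chloride channel present in smooth muscle and glands, measured 23.5, 27.1, 22.5 and 25.6 in females and 12.4, 10.2, 11.4 and 17.5 in males. Females varied little among themselves and lay above all males, and the difference was 0.91 (SE 0.14, limma adjusted p = 0.00402). Rab15, a small GTPase of vesicle transport, measured 3.80, 4.43, 3.23 and 4.81 in females and 1.40, 2.30, 1.36 and 1.78 in males (difference 0.91, SE 0.17, limma adjusted p = 0.0137). The other genes of this kind were Ehf, Slc5a5 and Plekha6.

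The called genes varied together from animal to animal. Female 56 was the highest female in 36 of the 51 (20.5% of all genes) and female 55 the lowest in 47 (23.52% of all genes). The highest female exceeded the lowest by a median ratio of 4.00. Among the males, male 54 was highest in 46 of the 51, against 23.79% of all genes. Its level was a median 26.9% of the female mean over the 51 genes (range 6.94 to 70.8%), and the other males were at a median 1.03%. The median for male 54 was 26.3% in the 20 genes of the epithelial lists and 29.9% in the other 31. At 0 reads were 20 of the 51 genes in male 37, 12 in male 38, 42 in male 53 and 0 in male 54. Of all tested genes, 1.41, 0.796, 12.161 and 0.867% were at 0 reads in the same males. Across the 12 females of the series, after the mean of each group was removed, 29 of the 51 followed the mean of Krt8, Krt18, Krt19 and Epcam with r of at least 0.7, against 5.77% of all genes. These include the 4 genes of that mean, and without them the count was 25 of 47. All these correlations use the same 12 libraries and are given as descriptions. The lowest r among the 51 was that of Slc38a11 (-0.15), followed by Wfdc18 and Bglap3 (0.03 each).

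The animals fall into the number runs 30 to 38 and 53 to 56, with 2 females and 2 males in each, and the labels do not say what the runs are. All 51 differences were positive in both runs, with a median of 1.37 in the first and 1.15 in the second, as those of 29.2% of all genes were. The 51 were called from these same animals, so the choice of genes favours this sign. With the run as a covariate limma called 44 genes, among them 39 of the 51. Among those lost were Ehf (limma adjusted p = 0.056), Ckmt1 (0.0592), Cldn8 (0.0756), Grhl2 (0.0637), Pkp1 (0.0592), Tfap2b (0.0521), Tspan1 (0.0577) and Wfdc18 (0.0521). No test was made within a run.

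Signals around the ducts were compared next. Of 18 genes for growth factors, receptors and matrix of mammary stroma, 0 were called and the median difference was 0.03. Esr1, the oestrogen receptor, measured 69.6, 76.7, 56.9 and 63.01 in females and 107, 79.7, 51.6 and 45.0 in males. Fgf10, which signals from mesenchyme to the growing duct, lay at 38.9 to 55.0 in females and 36.0 to 53.5 in males. Fgfr2, the receptor for it, measured 23.6, 22.8, 21.1 and 28.1 in females and 17.3, 18.9, 13.8 and 17.6 in males, without overlap (limma adjusted p = 0.227). Of 13 targets of steroids and prolactin, 0 were called and the median was -0.08. Cish, a prolactin and growth hormone target, ranged from 6.45 to 26.7 in females and from 4.99 to 56.3 in males.

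Markers of other tissues were read beside the epithelial genes. Skeletal muscle genes were high in females 30 and 36 and in male 38 and low in the other animals: the mean log2 level of 14 genes was 4.74, 6.37, 0.72 and 0.78 in females 30, 36, 55 and 56 and 0.73, 4.53, 2.13 and 0.69 in males 37, 38, 53 and 54. None of the 14 was called, and the median difference was 1.14. In the same order of animals Krt18 measured 9.04, 14.2, 3.88 and 15.7 in the females and 0.0518, 0.114, 0.0308 and 2.83 in the males. Of 7 tested skin and hair genes, 0 were called. Krt10, a keratin of the epidermis, was at 0.972 to 1.73 in females and 0.797 to 1.61 in males, and the epidermal genes Krt1, Flg and Lor did not enter the test. Of 6 sebaceous genes, 0 were called. All 7 Schwann cell genes had a positive difference (median 0.38) and none was called. All 12 B cell genes and all 13 T cell and lymph node stroma genes had a negative difference (medians -0.37 and -0.32), and none was called. Male 53 was the highest animal in both lists. The part of these tissues in the sex difference was not tested.

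In the lists of adipocyte, adipokine, lipogenic and thermogenic genes limma called 1 gene. Lists this short would hold few calls at the 0.33% called over all genes, so no lack of a sex difference in fat is read from this. All 14 adipocyte genes had a positive difference (median 0.24) and none was called. Positive differences were found in 119 of the 204 genes of the 19 lists for the rest of the pad. The difference of the mean adipocyte level was 0.429 in animals 30 to 38 and 0.098 in animals 53 to 56. This level was 9.96, 9.61, 9.51 and 9.57 in females 30, 36, 55 and 56. Adipoq, the adiponectin gene, measured 1456, 1023, 882 and 872 in females and 788, 796, 803 and 787 in males, which did not overlap (limma adjusted p = 0.431). Lep, leptin, ranged from 157 to 311 in females and from 149 to 255 in males. None of 12 lipogenic genes was called, with Fasn at 3636 to 8433 in females and 4072 to 6951 in males. Ucp1, which makes heat in brown and beige fat, measured 33.7, 218, 454 and 271 in females and 203, 455, 690 and 435 in males (limma adjusted p = 0.566). Ppargc1a and Ppara, regulators of mitochondrial fuel use, were above all males in all females, at 25.7 to 34.2 against 13.4 to 24.6 and at 19.2 to 27.6 against 9.17 to 17.0, and neither was called (limma adjusted p = 0.431 and 0.482). Ckmt1, a mitochondrial creatine kinase, was the called gene of the 10 thermogenic genes (0.60), with 0.279 to 1.08 in females and 0 to 0.191 in males. Its level followed Krt8, Krt18, Krt19 and Epcam across the 12 females (r = 0.905). None of 12 proliferation genes was called, and Mki67 was at 52.1 to 72.7 and 57.1 to 71.2.

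**Figure D3:**
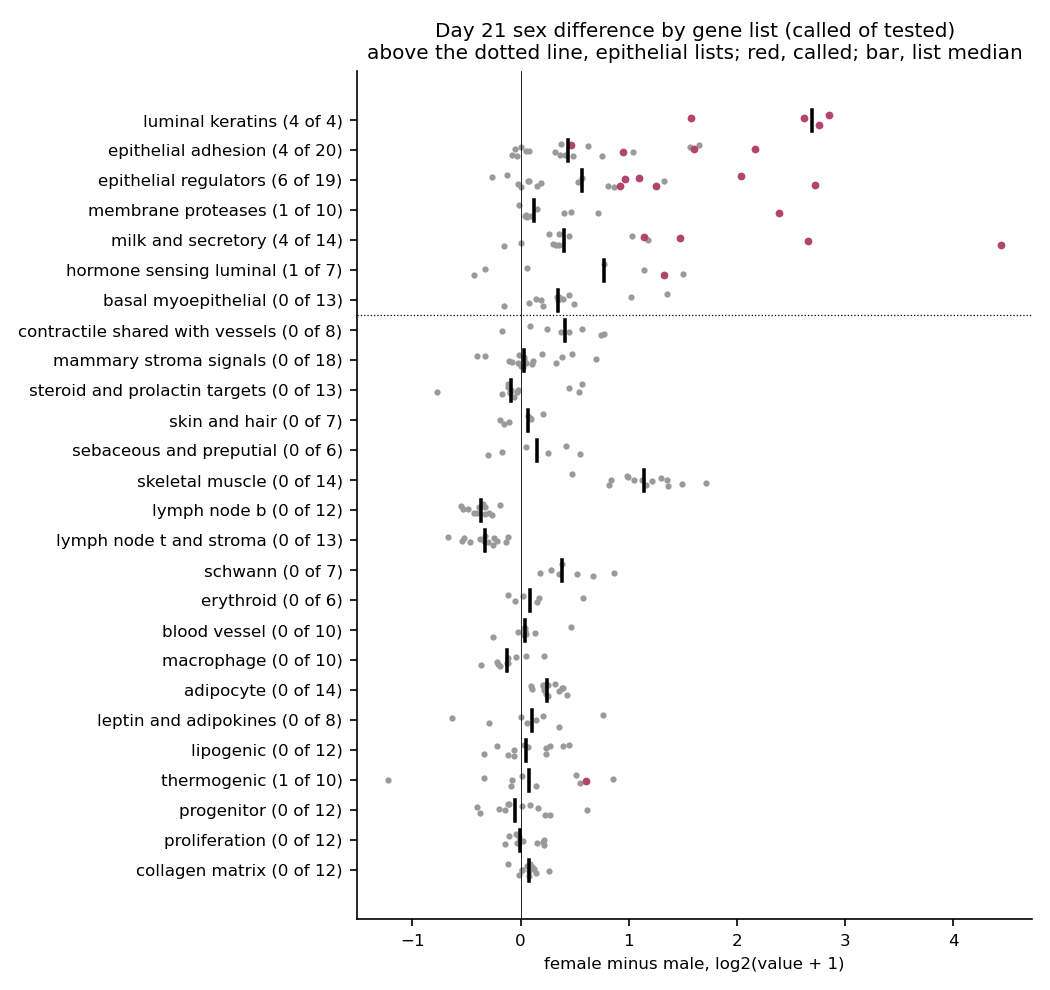
Female minus male difference at p21 on the log2(value + 1) scale (x axis) for each tested gene of 26 lists (rows), with called genes in red, the median of a list as a bar and the count of called genes of those tested in its label. Called genes lie in 6 of the 7 epithelial lists, and 1 lies among the 19 other lists.

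Fibroblast and macrophage genes divided the males. For 8 of 12 collagen and matrix genes males 37 and 38 lay above all other p21 animals, and for 11 of 12 males 53 and 54 lay below all others, against 5.02% and 9.79% of all genes. Col1a1, the main collagen of connective tissue, measured 3287, 4261, 1379 and 1434 in males 37, 38, 53 and 54 and 2426, 2010, 1829 and 2244 in the females. The female minus male difference of Col1a1 was therefore -0.76 in animals 30 to 38 and 0.53 in animals 53 to 56, and the pooled value was -0.12 (limma adjusted p = 0.951). Both counts were 4 of 12 for progenitor genes and 4 of 10 for macrophage genes. Mrc1, a scavenger receptor of resident macrophages, measured 34.4, 34.4, 43.1 and 47.8 in females and 82.6, 66.3, 23.1 and 26.3 in males, and its difference was -1.08 in the first run and 0.85 in the second. The females of the 2 runs did not divide in this way, and what the division of the males follows was not tested. The mitochondrial share was 16.6% and 13.2% in males 37 and 38 and 19.8% and 20.9% in males 53 and 54, and its part was not tested. Male 37 is also the library with the lowest GC correlation and male 53 the library with the fewest detected genes.

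**Figure D4:**
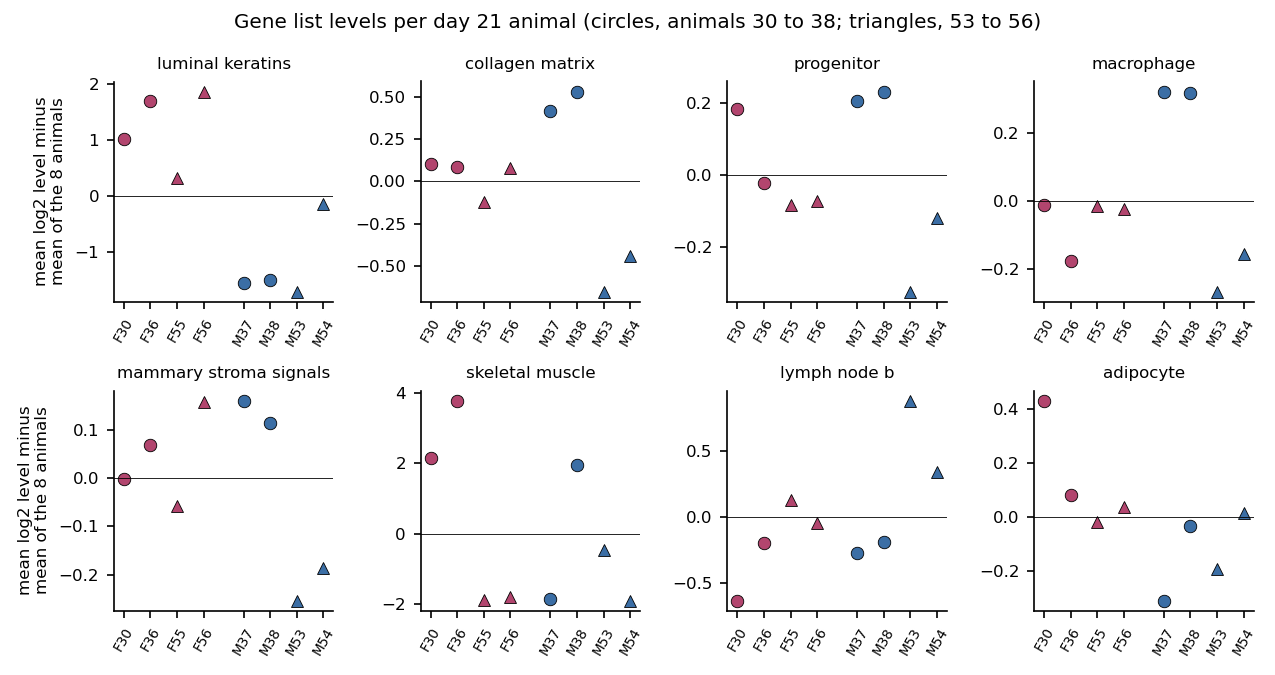
Mean log2 level of 8 gene lists (panels) in each p21 animal, minus the mean of the 8 animals (y axis), with females in red, males in blue, animals 30 to 38 as circles and 53 to 56 as triangles. Luminal keratins separate the sexes with male 54 nearest to the females, collagen and macrophage genes separate males 37 and 38 from males 53 and 54, and muscle genes are high in females 30 and 36 and male 38.

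By limma and edgeR no gene passed as higher in males, while DESeq2 called 10. Every male exceeded every female in 150 genes (0.97% of those tested). The smallest p-value among list genes on this side was that of Cd55, a marker of early adipose progenitors that shields cells from complement. It measured 48.9, 45.5, 56.8 and 42.9 in males and 33.9, 33.1, 39.9 and 38.6 in females (difference -0.40, limma adjusted p = 0.161). Other progenitor markers did not share this order: Pi16 measured 43.9 to 63.5 in females and 22.9 to 90.4 in males, and Pdgfra 50.7 to 90.2 and 27.1 to 95.2. Tmem132b and Ccl7, named after their values were seen as the lowest p-values on this side, differed by -0.60 and -0.59 (limma adjusted p = 0.101 and 0.137).

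At p28 the same genes separated other animals by sex. Of the 51 genes, 50 were higher in females at p28 SW (98.0% of the 51 and 9.6% of the 521 genes called there) and 49 at p28 DW (96.1% of the 51 and 16.78% of the 292 called there). Those calls made up 3.37% and 1.89% of all genes tested. The exceptions, named for that reason, were Slc38a11 in both groups and Grik3 at p28 DW. The median difference of the 51 was 1.26 at p21, 2.59 at p28 SW and 2.01 at p28 DW. The difference was larger than at p21 in 49 of the 51 at p28 SW and in 45 at p28 DW. These counts hold for the log2(value + 1) scale, on which a difference can grow with the level of a low gene while the ratio of the sexes does not. The ratios were not compared, and the share of all genes with a larger difference was not counted. Krt18 averaged 10.7 ± 5.36 (SD, n = 4) in p21 females, 63.5 ± 7.51 in SW females and 26.6 ± 12.5 in DW females. Csn3 averaged 42.7 ± 33.2 in p21 females, 58.4 ± 12.9 in SW females and 40.5 ± 8.12 in DW females. The sex difference of Csn3 was 4.44 at p21, 4.95 at p28 SW and 4.84 at p28 DW, and its change from p21 to p28 SW was 0.51 (SE 1.02, limma adjusted p = 0.965).

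The change of the sex difference was tested as an interaction on the same scale, with the same limit. It was called in 160 genes for p28 SW, 149 with a larger female excess at p28 than at p21 (0.964% of genes tested), and in 11 for p28 DW, 7 of them so (0.0453%). Capn8, a calpain of stomach mucous cells, measured 0.376, 0.592, 0.251 and 0.88 in p21 females and 0, 0, 0 and 0.15 in p21 males, and its female excess grew by 1.89 to p28 SW (limma adjusted p = 2.83e-06) and by 1.46 to p28 DW (limma adjusted p = 0.000304). Neither call held with DESeq2 (adjusted p = 0.941 and 0.652) or edgeR (adjusted p = 0.901 and 0.551), which called 98 and 4 interactions in all for p28 SW and 303 and 0 for p28 DW. Epithelial genes with a larger excess at p28 SW included Slc5a5 (2.29), Krt7 (2.04), Cldn4 (2.01), Pgr (1.86), Elf3 (1.62) and Grhl2 (1.32). Of these 6, DESeq2 called Slc5a5 alone (adjusted p = 0.00368) and edgeR none. A larger excess on this scale need not be a larger ratio of females to males, because the scale understates differences of low genes. Ido1, an enzyme that breaks down tryptophan, lay at 0.08 to 0.752 in p21 females and 0 to 0.277 in p21 males, and its excess grew by 1.76. For p28 DW the called genes with a negative sign included Gramd1b, a sterol transporter (-1.20), Lpin1, a lipid phosphatase (-1.13), and Gpat4, an enzyme of triglyceride synthesis (-0.85). Gpat4 measured 211, 141, 159 and 153 in p21 females and 128, 128, 123 and 138 in p21 males. Of genes higher in males in both p28 groups there were 7, and 6 of these had a positive female minus male difference at p21.

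**Figure D5:**
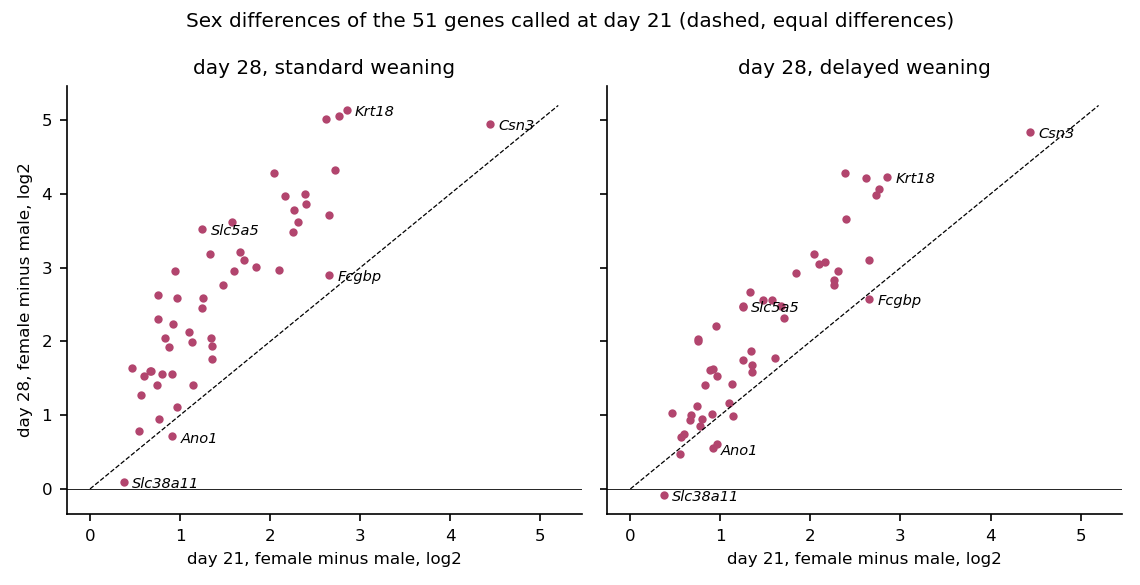
Female minus male differences of the 51 genes called at p21, on the log2(value + 1) scale, at p21 (x axis) against p28 after standard weaning (left) and delayed weaning (right). Most points lie above the dashed line of equal differences, while Csn3 lies near it and Slc38a11 is at 0.09 and -0.08 at p28.

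The number of calls changed with the tool, the samples in the fit and single animals. With edgeR on the recovered reads 10 genes were called (0 higher in males), 7 of them among the 51, with DESeq2 108 (98 higher in females, 24 among the 51), and with only the 8 p21 animals in the fit 1. Leaving out 1 animal gave 40 calls without female 30, 13 without 36, 92 without 55 and 13 without 56, and 17, 19, 13 and 62 without males 37, 38, 53 and 54. In these 8 fits 11 genes were called every time: Ano1, Tlcd4, Clic6, Tfcp2l1, Csn3, Slc5a5, Atp6v1b1, Ltf, Dmbt1, Fcgbp and Fgg. DESeq2 called 8 of these 11, not Csn3, Atp6v1b1 (adjusted p = 0.419) or Fgg (adjusted p = 0.324), and edgeR called 3, Ano1, Slc5a5 and Dmbt1. Krt8, Krt7 and Pgr were called in 2 of the 8, and Krt18, Krt19, Epcam and Foxa1 in 3. All 51 kept a positive difference in each of the 8. With the mean level of Krt8, Krt18, Krt19 and Epcam as a covariate 0 genes were called (308 at an unadjusted p under 0.05). Some differences changed little and others much: Ano1 had 0.88 with the covariate against 0.91 without, Bglap3 0.67 against 0.77, Csn3 1.09 against 4.44 and Epcam 0.18 against 2.17. Of the 51, 50 are among the 973 genes not on X or Y that the authors' deposited table gives as higher in females at an adjusted p under 0.05.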

How the data were processed

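Poly(A) RNA of inguinal fat from 24 mice was sequenced with 1 library per mouse (KAPA mRNA HyperPrep kit, per the labels' protocols). The submitters' processing notes name fastp, HISAT2, featureCounts, DESeq2 1.38.3 and mm10. The authors deposited a signal for each gene and sample, reads divided by 1 factor per sample, and per the file headers log2 fold changes with adjusted p-values of their own tests, quoted only as the authors' deposited table. Whole reads were recovered from 100% of values (tolerance 0.01). In 7 of the 8 p21 libraries more genes had 2 reads (75 to 162) than 1 (13 to 33), so reads may count both ends of a fragment and are not independent molecules. Of 16208 rows, 90 repeated genes were dropped. Gene starts matched GENCODE M21 in only 2.23% of cases, so no deposited position is printed.

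Groups follow the age and sex labels and descriptions. The p21 titles carry a different age, and the title of female 56 a different animal number. Genes were kept by filterByExpr (minimum count 10), which left 16005, and log2(value + 1) of all 24 samples was fitted with 6 group coefficients and 18 residual degrees of freedom (limma 3.58.1, variance trend, R 4.3.3). This scale understates differences of low genes. Adjustment ran over all tested genes, X and Y included. edgeR 4.0.16 and DESeq2 1.42.0 were run on recovered reads as alternatives. The deposited scaling lay within 0.972 to 1.04 of TMM, and no pair of replicates agreed within sampling noise (smallest chi-square per degree of freedom 79.5). The fits were tested on simulated data.

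Named genes are the 20 largest differences among called genes whose groups did not overlap and whose female mean log2 value was 1 or more, 15 called genes of smallest p in no epithelial list, the 5 smallest p of each interaction, and any gene of the 26 lists. Plekha6, Grik3, Slc38a11, Tmem132b, Ccl7 and the genes higher in males at p28 were named after their values were seen. Comparison, lists and rules were chosen with earlier results of these data known. The values of 2 list genes are not reported here.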

Additional observations from a re-analysis of the deposited data

Results flagged for a closer look

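Among the called genes that the naming rules above picked, male 54 lay far above the other 3 p21 males in 22. The gap passed Dixon's 95% critical value for 4 animals. The remaining called genes were not examined in this way. They include Gabrp, Cyp3a57 and Prr15l, which had 0 reads in males 37, 38 and 53 and values above 0 in male 54. Its values were 6.65 for Csn3, 2.83 for Krt18, 2.52 for Krt8, 2.08 for Atp6v1b1, 1.82 for Ltf, 1.60 for Foxa1, 1.40 for Tfap2b, 1.35 for Prom2 and 1.09 for Muc15. It had 0.922 for Tmprss2, 0.814 for Wfdc18, 0.805 for Krt7, 0.573 for Elf5, 0.540 for Foxi1, 0.498 for Fgg and 0.424 for Btn1a1. At the low end it had 0.299 for Grhl2, 0.274 for Elf3, 0.199 for Pgr, 0.158 for Bglap3, 0.116 for Cldn8 and 0.0913 for Tspan1. The mean log2 level of its luminal keratins was 1.57, of its epithelial regulators 1.39, of its adhesion genes 1.21 and of its milk and secretory genes 2.12. These genes move together, so they are not separate observations.

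Other animals stood apart in single measures. Female 36 was far from the other females in the blood vessel genes (mean log2 level 6.91), the macrophage genes (4.77) and the correlation with GC content (0.304). Female 55 was low in collagen and matrix genes (9.04), female 56 in the mitochondrial share (16.61%) and male 53 in detected genes (14054). Over 138 sets of 4 animals examined, 32 held such an animal, 26 of them male 54. Independent sets at 1 in 20 would give 6.9, but these sets share animals and move together. Males 37, 38 and 53 all had 0 reads in 12 of the 51 called genes. In such a gene any value of male 54 above 0 passes the limit, so no conclusion is drawn from the count.

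The sex difference of some genes on the log2(value + 1) scale differed between p21 and p28 by the limma test of the interaction. On this scale a larger difference need not be a larger ratio of the sexes. From p21 to p28 SW the female minus male difference grew by 2.29 for Slc5a5, 2.04 for Krt7, 2.01 for Cldn4, 1.89 for Capn8, 1.86 for Pgr, 1.76 for Ido1, 1.66 for Kera, 1.62 for Elf3, 1.55 for Tspan1, 1.34 for Fxyd3, 1.32 for Grhl2, 1.17 for Cldn8, 1.00 for Pak6, 0.93 for Ckmt1 and 0.88 for Proc. It changed by -0.92 for Gramd1b and -0.68 for Gpat4. From p21 to p28 DW it changed by 1.46 for Capn8, 1.26 for Tspan1, -0.85 for Gpat4, -1.13 for Lpin1 and -1.20 for Gramd1b. Neither DESeq2 nor edgeR called the change to p28 SW for Capn8, Krt7, Cldn4, Pgr, Elf3 or Grhl2. All of these rest on the same p21 animals.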

How the results depend on the processing

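The 51 genes had a positive difference in all alternatives in which they were tested, except that Krt8 (-0.223) and Krt19 (-0.01) reversed with the mean of Krt8, Krt18, Krt19 and Epcam as a covariate, a mean that they are part of. The number called, by contrast, depended on the setting. It was 10 with edgeR under both normalizations (0 higher in males, 1374 genes at an unadjusted p under 0.05), 108 with DESeq2 (98 higher in females, 10 in males), 85 with a pseudocount of 0.1 (84 and 1), 493 with sample weights (320 and 173), 1 with only the p21 animals, 25 without males 53 and 54 (20 and 5), and 0 with the covariate above or without male 53 and female 36 (542 at an unadjusted p under 0.05). With the run of animal numbers as a covariate 1 gene was higher in males. Leaving out 1 p21 animal gave 13 to 92 calls, 13 to 91 higher in females and 0 to 2 in males. Of alternatives added after seeing the data, edgeR called 28 genes on halved reads, 7 without male 53 and 40 without males 53 and 54 (31 and 9), and values corrected for GC content gave 55 calls with all animals and 16 without male 53. The interaction with p28 SW was called in 160 genes by limma, in 98 by DESeq2, in 4 by edgeR (both normalizations and halved reads), in 37 with a pseudocount of 0.1 and in 794 with sample weights. That with p28 DW was called in 11, 303, 0, 0 and 1429 (0 with edgeR in each form, 2600 at an unadjusted p under 0.05), in 28 after GC correction and in 1 to 18 without 1 p21 animal. The cause of these shifts was not tested. No paired analysis was possible because females and males share no animal numbers. The interactions were not refitted without single p28 animals. In male 53, 12.161% of tested genes had no read, against 0.479 to 1.41% in the other p21 libraries. A single read is a value of 0.0154 in male 53. Tlcd4, at 0.925 and 0.689 in males 37 and 38, had 0 reads there. A value of 0 in male 53 is therefore not comparable with a 0 in the other libraries, and what its missing genes follow was not tested.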

Other observations

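Genes that separated the sexes at p28 were read at p21. Of the 521 genes higher in females at p28 SW, 471 had a positive female minus male difference at p21, with a median of 0.24, and of the 292 at p28 DW 261 did, with a median of 0.35. The 521 and 292 genes include 50 and 49 of those called at p21. Most genes higher in males at p28 were not lower in females at p21. Of the 23 at p28 SW 7 had a negative difference at p21 (median 0.13), and of the 87 at p28 DW 11 did (median 0.15). The median difference of all genes at p21 was 0.02, and the share of all genes with each sign was not counted. The p21 and p28 animals are different mice.

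Of the 7 genes higher in males in both p28 groups, several serve fat storage and glycerol supply. Plin4, a coat protein of lipid droplets, differed by 0.42 at p21, Aqp7, the glycerol channel of fat cells, by 0.15 and Pck1, an enzyme of glycerol synthesis in fat, by 0.04. Chdh (0.33), Ankef1 (0.17) and Fam107a (0.07) had positive differences as well, and Serpina3k a negative difference (-0.27). None of the 7 was called at p21 by limma. Aqp7 measured 330, 318, 273 and 234 in p21 females and 241, 276, 242 and 277 in p21 males.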
